A study of Mus musculus with 8 samples.

Results

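A set of 44 genes of the 43346 in the count table was counted in the mouse macrophage line RAW 264.7 and hardly at all in the other cells of the same experiment. The members were chosen by level in CPM (a gene's reads divided by the library's total and scaled to 1000000 reads). Each had at least 5 CPM in both RAW 264.7 libraries and at most 0.2 CPM in each of the 6 other libraries. They make up 0.474% of the 9291 genes that reached 5 CPM in both RAW 264.7 libraries. Because those levels chose the genes, the contrast between RAW 264.7 and the other cells is described here and not tested.

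RAW 264.7 is a macrophage-like line that grew from a tumour induced with Abelson murine leukaemia virus in a BALB/c mouse, whereas the mm10 reference genome comes from the C57BL/6J strain. A cultured tumour line can transcribe genes that its tissue of origin keeps silent, and it carries the alleles of its own strain. Mouse genomes also hold processed pseudogenes, intronless copies of messenger RNAs inserted by reverse transcription, and short reads from such a copy and from its parent gene can be hard to tell apart.

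Polyadenylated RNA was sequenced in 6 groups. Bone marrow-derived macrophages (BMDM, grown in L929-conditioned medium) gave 2 libraries unstimulated and 2 libraries 3 h after lipopolysaccharide (LPS), the bacterial cell wall component sensed by TLR4. The cells labelled hMPDM and RAW 264.7, the latter grown in DMEM with serum, gave 1 library per state. No source used here gives the strain of the mice behind the other cells, the LPS dose or what hMPDM stands for. With 1 library per state, RAW 264.7 values have no replicate check, and the 2 libraries are from 1 line. Nothing in the labels tells whether each BMDM replicate was its own culture, and p-values below then measure the spread of these samples only, which may be technical. RAW 264.7 libraries were the shallowest, with 3116434 counts at rest and 4078496 after LPS, against 5510319 to 19307312 in the other 6. A count of 0 allows up to 3 counts, which is 0.963 CPM in RAW 264.7 at rest and 0.155 CPM in the deepest BMDM library. These limits and the 95% intervals below take in counting error alone, because reads that carry no molecular identifier do not each stand for a separate molecule. RAW 264.7 had the defining genes of macrophages, of which 21 of 22 on a list reached 5 CPM in both of its libraries, while Marco, a scavenger receptor, had 0 counts in both. Of 21 epithelial markers 18 had 0 counts in both RAW 264.7 libraries, as had 33 of 39 neuronal and 14 of 16 fibroblast genes. Most genes of the table had none either: 13060 of 43346 had a read in RAW 264.7 at rest and 13272 after LPS.

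In bulk RNA, fewer cells that transcribe a gene and less RNA per cell cannot be told apart. Together the 44 genes held 3418 counts (0.110% of the library) in RAW 264.7 at rest and 4546 (0.111%) after LPS. In the other libraries they held 35 and 34 counts in BMDM at rest, 14 and 27 in BMDM after LPS, and 25 and 7 in hMPDM at rest and after LPS. The pooled level was 1107 CPM in RAW 264.7 and 1.80 CPM elsewhere, which is 0.162% of it. The maximum allowed 3 reads in each of the 4 deeper libraries and 1 in each of the 2 shallower ones. Of the 44, 7 members had no read at all outside RAW 264.7, 21 had 1 to 3 reads in all and 16 had 4 or more, up to 10.

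**Figure D1:**
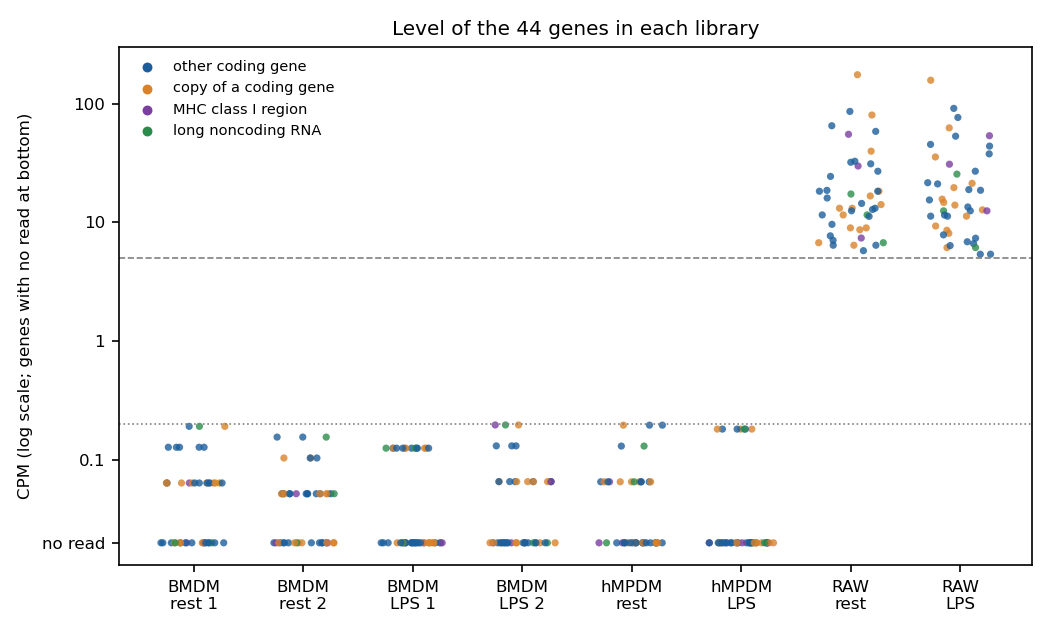
CPM on a log axis for each of the 44 genes (points) in each of the 8 libraries, coloured by kind of gene, with genes without a read on the bottom line. The dashed line marks the minimum of 5 CPM and the dotted line the maximum of 0.2 CPM that chose the genes, so the gap between RAW 264.7 and the other libraries is set by the choice.

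The 44 genes were of 4 kinds. In GENCODE M21, 28 were protein coding, 13 were pseudogenes of some type, and 3 were long noncoding RNAs. Sequence comparison of their transcripts set apart 14 copies of other genes, 10 of them of at least 99% identity. The 14 held 36.8% of all member reads in RAW 264.7. A further 3 members lay in the class I region of the major histocompatibility complex (8.59% of reads), 24 were other coding genes (50.9%), and 3 were the noncoding RNAs (3.65%). Pseudogene types made up 29.5% of the members and 0.538% of the 9291 genes with 5 CPM in both RAW 264.7 libraries, where they numbered 50. Put the other way, 26% of those 50 pseudogenes were members, as were 0.307% of 9121 coding genes. Genes annotated as a single exon block made up 29.5% of members and 1.75% of the 9291.

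Of the 14 copies, 10 differed from their parent genes by under 10 substitutions, and the differing bases are shown for some of these. In the copies shown, which aligned to the parent over their full length, those bases are all that separates 50-base reads of copy and parent. Sequences are from GENCODE M21 transcripts (GRCm38, the assembly that mm10 names), on the strand of the transcript, with the differing base in capitals. Positions count from 1 at the 5′ end of the copy's transcript, and the parent's base comes first. Gm15772 (ENSMUSG00000062353.6, chr5:3236431-3236868, plus strand, 1 exon) is a copy of Rpl26, a ribosomal protein gene on chromosome 11. It differs at 2 of 438 aligned bases, C177T (window chr5:3236582-3236632) and T288C (window chr5:3236693-3236743), and both windows lie in the coding sequence of Rpl26.
Gm15772 at C177T: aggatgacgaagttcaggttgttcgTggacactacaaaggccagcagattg
Rpl26 at C177T: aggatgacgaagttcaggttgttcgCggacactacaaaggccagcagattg
Gm15772 at T288C: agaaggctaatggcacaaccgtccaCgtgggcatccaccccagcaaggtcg
Rpl26 at T288C: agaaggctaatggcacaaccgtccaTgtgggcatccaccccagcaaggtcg

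Rpl3-ps1 (ENSMUSG00000084349.3, chrX:13202571-13203780, plus strand, 1 exon), a copy of the ribosomal protein gene Rpl3, differs at 2 of 1210 aligned bases, C58A (window chrX:13202603-13202653) and T787C (window chrX:13203332-13203382). Gm10039 (ENSMUSG00000091478.2, chr11:100361716-100362126, minus strand, 1 exon), a copy of Atp5g1, which encodes a subunit of the mitochondrial ATP synthase, differs at 1 of 411 bases, G385A (window chr11:100361717-100361767). In each of these 3 copies the large majority of 50-base windows has an exact match in another gene: 91.5% in Gm15772, 95.7% in Rpl3-ps1 and 92.5% in Gm10039. For Gm15772 and Rpl3-ps1 some of these exact windows hold a marked base. There a marked base tells the copy from its parent, but not from every other gene.
Rpl3-ps1 at C58A: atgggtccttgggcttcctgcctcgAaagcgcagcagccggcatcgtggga
Rpl3 at C58A: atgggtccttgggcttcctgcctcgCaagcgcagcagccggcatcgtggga
Rpl3-ps1 at T787C: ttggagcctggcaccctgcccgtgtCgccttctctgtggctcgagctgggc
Rpl3 at T787C: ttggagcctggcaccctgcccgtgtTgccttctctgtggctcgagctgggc
Gm10039 at G385A: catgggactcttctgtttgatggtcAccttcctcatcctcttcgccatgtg
Atp5g1 at G385A: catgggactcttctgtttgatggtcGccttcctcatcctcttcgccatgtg

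Of the 14 copies 13 had a single exon block, and the exception was Eno1b, a copy of the glycolytic enzyme gene Eno1. The other parents were Rps18 (copied by Gm10260, 5 substitutions), the complex I gene Ndufa12 (Gm15920, 2), the lysosomal scaffold gene Lamtor3 (Gm5900, 2), the splicing factor gene Rnps1 (Gm9825, 5), Itpa, which encodes an enzyme that clears deaminated nucleotides (Itpa-ps1, 4), and Ahcy, which encodes the hydrolase of S-adenosylhomocysteine (Gm4737, 7). Eno1b differed by 9. A second, more diverged group was Gm4875 (Lasp1, 28 substitutions), Rplp0-ps1 (Rplp0, 41), Wsb2-ps (Wsb2, 49) and Gm6368 (Hsp90ab1, 171). The other 28 members, with H2-Q2 and Gm8810 set aside, shared little: the median share of their 50-base windows with an exact match elsewhere was 0%, and in 2 it passed 1% (Cpne8 with 1.45% and Gm10499 with 13.1%).

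Gm10260 was the most abundant member, also per transcript length (CPM per kilobase of gene model, RPKM, of 382 at rest and 343 after LPS, against 183 and 143 for Gm15772, the next). It had 546 counts (175.2 CPM) in RAW 264.7 at rest and 642 (157 CPM) after LPS, and 1, 0, 1, 1, 3 and 1 counts in the 4 BMDM and 2 hMPDM libraries. Its parent Rps18, a protein of the small ribosomal subunit, was counted at 31.3 and 26.9 CPM in BMDM at rest and at 11.9 CPM in RAW 264.7. Parent and copy together came to 29.1 ± 3.19 CPM (SD, n = 2) in BMDM and 187 CPM in RAW 264.7, a ratio of 6.42. These are assigned reads, and why their sum differed was not tested.

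Gm15772 and Rpl26 differed from that pair in size. Gm15772 had 250 counts (80.2 CPM) in RAW 264.7 at rest and 255 (62.5 CPM) after LPS, and 1 to 3 counts in each of the other 6 libraries. Rpl26 stood at 64.0 and 64.4 CPM in BMDM at rest, 56.7 and 66.3 in BMDM after LPS, 69.98 and 61.7 in hMPDM at rest and after LPS, and 2.57 and 2.70 in RAW 264.7. The RAW 264.7 libraries thus lay more than an order of magnitude below all 6 others for the parent. Rpl26 was lower in RAW 264.7 than in BMDM at rest by edgeR's quasi-likelihood test (log2 -4.84, SE 0.27, adjusted p = 2.31e-15), a fit that assumes the lone RAW 264.7 library varies as the BMDM pairs do. The sum of both genes was 82.8 CPM in RAW 264.7 and 64.3 ± 0.297 CPM (SD, n = 2) in BMDM, a ratio of 1.29, and Gm15772 held 96.9% of the pair's reads in RAW 264.7.

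The levels of the parents did not enter the rule, but reads assigned to a copy are reads its parent does not get, so the parents' values in RAW 264.7 are tied to those of the members and are no independent evidence. In that test 27.1% of the 12461 genes tested were higher in RAW 264.7 than in BMDM at rest and 31.3% lower (adjusted p under 0.05). Of the 14 parents 2 were higher, Hsp90ab1 (log2 0.56) and Ndufa12 (0.50), and 7 were lower: Rpl26, Rpl3 (-1.68), Rps18 (-1.48), Rnps1 (-1.30), Lamtor3 (-0.98), Rplp0 (-0.74) and Eno1 (-0.39). By substitutions, the parents of copies with under 10 gave 6 lower and 1 higher of 10, and the parents of more diverged copies gave 1 lower and 1 higher of 4. The difference between those groups of parents was not tested. With DESeq2 the call for Ndufa12 ended, which left 1 higher. Log2 values use TMM scaling, which sets them 0.20 below a plain CPM ratio at rest and 0.47 below it after LPS.

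After LPS, where 29.8% of tested genes were higher and 36.4% lower in RAW 264.7 than in BMDM, 2 parents were higher and 8 lower. Rpl26 was again the lowest (log2 -5.00). One of the 8, Eno1 (-0.37), would be higher on the plain CPM scale (0.10), so its direction depends on the scaling.

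Summed over copy and parent, the level in RAW 264.7 at rest stayed within 1.5 times that in BMDM for Eno1 (ratio 1.13), Rnps1 (1.10), Itpa (1.26), Lamtor3 (0.795), Lasp1 (1.09), Wsb2 (1.18), Rplp0 (0.727) and Rpl26, and lay outside it for Rpl3 (0.512), Hsp90ab1 (1.69), Ndufa12 (2.36), Ahcy (2.66), Rps18 and Atp5g1 (8.75). Atp5g1 had only 5 and 11 counts in RAW 264.7 and 34 and 21 in BMDM at rest, while Gm10039 had 41 and 80 counts in RAW 264.7. The share of the pair's reads assigned to the copy at rest ran from 0.423% for Gm6368, the most diverged, to 96.9% for Gm15772. No source used here says how reads that map to several places were counted, and within a pair reads of the copy and reads of the parent cannot be told apart with certainty. The line and the strain it came from cannot be told apart either.

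**Figure D2:**
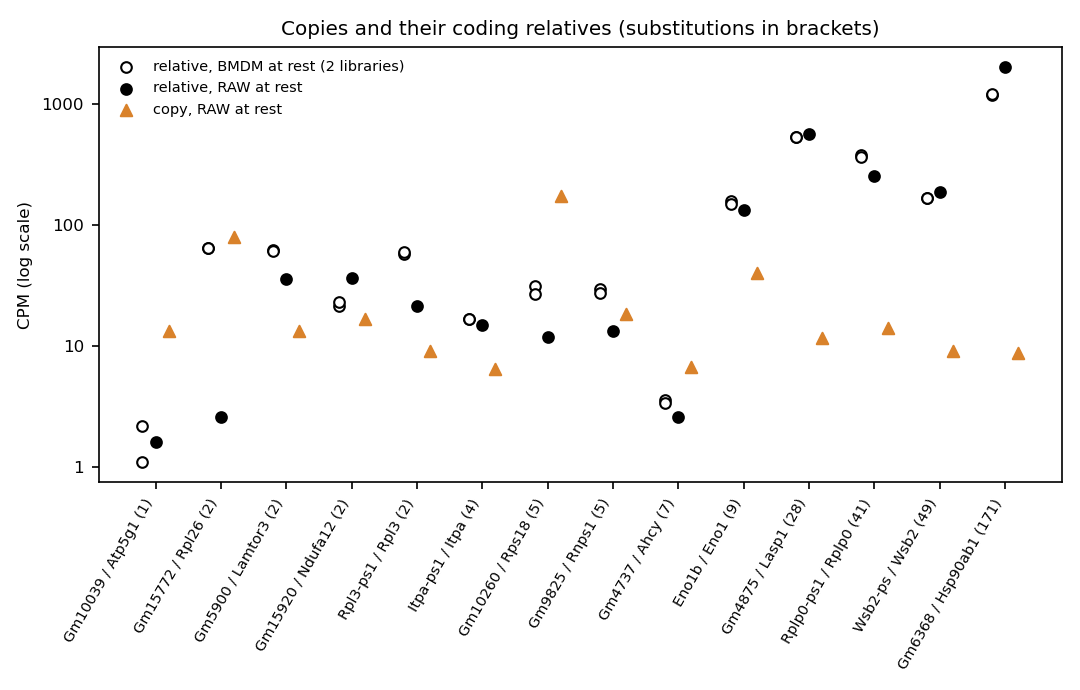
CPM on a log axis at rest for the 14 copies in RAW 264.7 (triangles) and for their parents in the 2 BMDM libraries (open circles) and RAW 264.7 (filled circles), ordered by substitutions between copy and parent (in brackets). Rpl26 lies at 64.0 and 64.4 CPM in BMDM and at 2.57 CPM in RAW 264.7, and in RAW 264.7 the copy lies above the parent for Gm15772, Gm10260, Gm10039, Gm9825 and Gm4737.

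Class I molecules of the major histocompatibility complex present peptides to T cells, and the H2-Q and H2-T genes of mouse chromosome 17 encode nonclassical members that differ between strains. H2-Q2 (ENSMUSG00000091705.4, chr17:35342242-35346762, plus strand) had 172 and 219 counts (55.2 and 53.7 CPM) in RAW 264.7 at rest and after LPS. In the other libraries it had 1 and 1 counts (BMDM at rest), 0 and 3 (BMDM after LPS), and 1 and 0 (hMPDM). The pseudogenes Gm8810 and Gm10499 lay 74.0 kb apart in the H2-T part of the region, the closest pair of members in the genome. Gm10499 had 93 and 126 counts (29.8 and 30.9 CPM) in RAW 264.7 and 0 in each of the 6 other libraries, and Gm8810 had 23 and 51 (7.38 and 12.5 CPM) with 1 read elsewhere. Their best matches among coding transcripts were H2-D1 for H2-Q2 (85.2% identity) and for 32.3% of the length of Gm10499 (92.9% identity), and H2-T22 for Gm8810 (83.3%). Class I genes share long stretches, so the split of reads among them is uncertain.

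Other H2-Q genes were measured without entering the rule. All 6 that were tested were higher in RAW 264.7 than in BMDM at rest: H2-Q10 (log2 8.32), H2-Q6 (7.16), H2-Q5 (5.94), H2-Q7 (2.95), H2-Q1 (2.62, with 3 and 3 counts in BMDM and 4 in RAW 264.7) and H2-Q4 (1.58). The filter on low counts can be passed through RAW 264.7 alone, as H2-Q1 did, so the count of 6 is no independent support. Of the 8 H2-Q genes, H2-Q2 included, 1 reached a mean of 1 CPM in BMDM at rest and 7 reached 1 CPM in RAW 264.7. H2-Q10 stood at 0.255 and 0.207 CPM in BMDM at rest and at 88.6 CPM in RAW 264.7, and at 84.8 CPM in RAW 264.7 after LPS. H2-Q3 had 1 read or none in each library. After LPS, H2-Q10 (8.09), H2-Q6 (3.13), H2-Q1 (3.10) and H2-Q5 (1.39) were again higher, while H2-Q4 (-0.58) and H2-Q7 (-1.05) were lower in RAW 264.7. H2-Q4 stood at 28.2 and 25.4 CPM in BMDM at rest and at 99.4 and 108 CPM in BMDM after LPS, against 91.8 and 96.8 CPM in RAW 264.7. The difference between the states was not tested. Of the H2-T genes, H2-T24 was higher at rest (2.42), H2-T22 lower (-0.83), and H2-T23 (-0.07) and H2-T10 (0.16) did not pass.

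**Figure D3:**
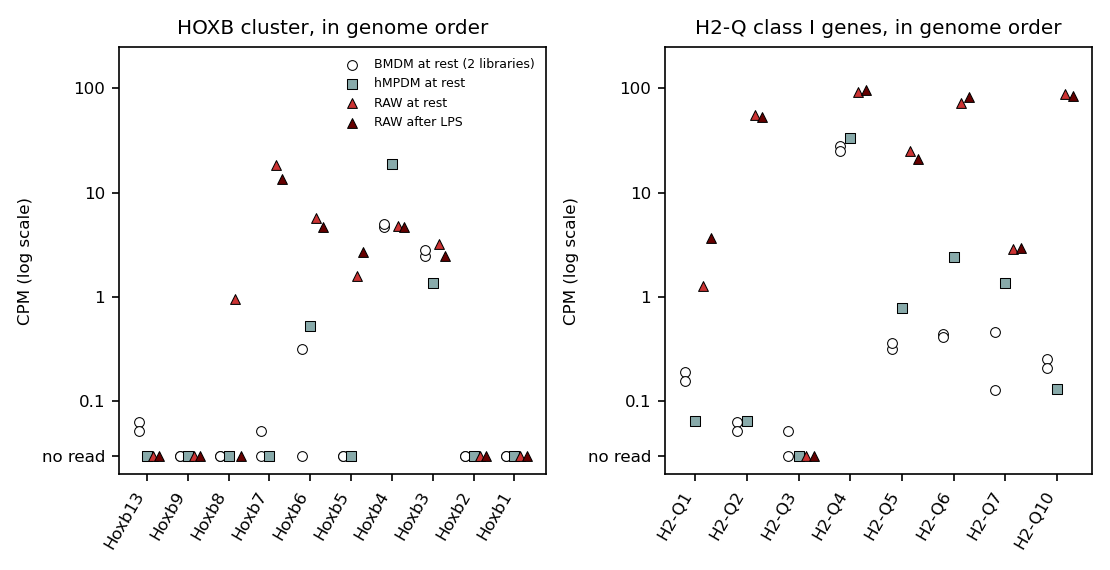
CPM on a log axis for the genes of the HOXB cluster (left) and the H2-Q genes (right) in genome order, in BMDM at rest (open circles, 2 libraries), hMPDM at rest (squares) and RAW 264.7 at rest and after LPS (light and dark triangles), with genes without a read on the bottom line. RAW 264.7 stands above BMDM at Hoxb7, Hoxb6 and Hoxb5 and at 6 other H2-Q genes beside H2-Q2, and close to the BMDM points for Hoxb4 and Hoxb3, at 4.81 and 3.21 CPM at rest.

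Among the other coding members, 5 encode transcription factors of development. Hoxb7, a homeobox factor of the HOXB cluster (ENSMUSG00000038721.8, chr11:96286623-96290162, plus strand), had 58 and 55 counts (18.6 and 13.5 CPM) in RAW 264.7 at rest and after LPS, and 0, 1, 1, 1, 0 and 0 counts in the BMDM and hMPDM libraries. The next genes of the cluster were no members. Hoxb6 had 18 and 19 counts in RAW 264.7 and 5 and 0 in BMDM at rest (log2 5.02), although hMPDM at rest had 8. Hoxb5 had 5 and 11 counts in RAW 264.7 and 0 in the 6 other libraries, at least 18.7-fold higher at rest against 3 counts over the 2 BMDM libraries. Hoxb6 and Hoxb5 passed the filter on low counts only through RAW 264.7, so their calls support nothing. Hoxb4 (log2 -0.21) and Hoxb3 (0.06) did not pass, and Hoxb4 was highest in hMPDM at rest (18.9 CPM, against 4.72 and 4.97 in BMDM and 4.81 in RAW 264.7). Hoxb8 had 3 and 0 counts in RAW 264.7, and Hoxb9, Hoxb2 and Hoxb1 had none in any library.

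Irx2, an Iroquois homeobox factor (chr13:72628820-72634198, plus strand), had 50 and 63 counts (16.0 and 15.4 CPM) in RAW 264.7 and 1 read in the other 6 libraries. Its relatives Irx1, Irx3, Irx4 and Irx6 had no read in any library and Irx5 had 1. Tfcp2l1, known from naive pluripotent cells and kidney ducts, had 100 and 154 counts (32.1 and 37.8 CPM) and 9 elsewhere, spread over all 6 other libraries. The zinc finger factor gene Tshz3 had 39 and 51 counts, while its relative Tshz1 was lower in RAW 264.7 at rest than in BMDM (log2 -1.38). Dmrt2, a factor of somite development, had 20 and 22 counts and 2 elsewhere, and its neighbours Dmrt1 and Dmrt3 had none in any library.

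Further coding members encode receptors, adhesion molecules, transporters and signalling proteins. Il17rc, the partner chain of the interleukin 17 receptor (ENSMUSG00000030281.12, chr6:113471427-113483140, plus strand), had 76 and 88 counts (24.4 and 21.6 CPM) in RAW 264.7 and 1 to 3 counts in each of the 6 others. The other chain, Il17ra, was well counted everywhere, at 129 and 140 CPM in BMDM at rest and 135 CPM in RAW 264.7 (log2 -0.20, adjusted p = 0.0371, edgeR; the plain CPM values of RAW 264.7 lie between those of BMDM). Il17re, the gene next to Il17rc, and Il17rb had no read in any library. Amhr2, the receptor of anti-Müllerian hormone, had 20 and 22 counts in RAW 264.7 and 0 elsewhere.

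Nectin3, an adhesion molecule of adherens junctions, had 102 and 110 counts (32.7 and 27.0 CPM) in RAW 264.7 and 3 elsewhere. Other nectins differed in both directions: Nectin1 was higher in RAW 264.7 than in BMDM at rest (log2 3.89, from 0.702 and 0.984 to 14.8 CPM) and Nectin4 lower (-5.14, from 30.8 and 29.2 to 0.963 CPM), and Nectin2 did not pass (-0.45). Igsf3, an immunoglobulin superfamily protein, had 84 and 185 counts (27.0 and 45.4 CPM) and 5 elsewhere. Itga7, a laminin-binding integrin chain of muscle, had 30 and 47 counts, and Itga6, also a laminin receptor chain, was lower in RAW 264.7 (-4.40, from 187 and 191 to 10.3 CPM). Of 22 muscle genes 14 had 0 counts in both RAW 264.7 libraries, where most genes of the table had no read either (13060 of 43346 had one at rest). Opcml, a neuronal adhesion molecule, had 35 and 27 counts, and Fam19a2, a secreted neurokine, 22 and 32, with 1 and 3 reads elsewhere.

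Cpne8, a calcium-dependent phospholipid-binding copine (ENSMUSG00000052560.11, chr15:90487482-90679432, minus strand), was the coding member with the most reads apart from Gm10260, with 268 and 372 counts (86.0 and 91.2 CPM) in RAW 264.7. It had 2, 1, 0 and 2 counts in BMDM and 1 and 0 in hMPDM. Cpne3 (log2 -0.35) and Cpne2 (-1.22), the copines that BMDM counted, were lower in RAW 264.7 at rest. Slc9a4, a sodium-proton exchanger of the stomach, had 203 and 312 counts (65.1 and 76.5 CPM) and 6 elsewhere, whereas the endosomal exchanger Slc9a9 was lower in RAW 264.7 (-3.78, from 257 and 251 to 21.2 CPM). Sgsm1, which acts on small GTPases, had 182 and 217 counts (58.4 and 53.2 CPM) and 1 read elsewhere. Trpm1, a cation channel of melanocytes and retina, had 41 and 30 counts, and Rhd, the mouse homologue of the Rhesus blood group protein, 18 and 26. The polarity protein gene Pard6b had 24 and 28 counts and the membrane protein gene Tmem98 57 and 76.

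The remaining coding members encode enzymes, structural proteins and an inhibitor. Spink5, a serine protease inhibitor of skin, had 97 and 179 counts (31.1 and 43.9 CPM) in RAW 264.7 and 0 in the 6 other libraries, and 10 of its 11 relatives had no read in any library. Myh14, a nonmuscle myosin heavy chain, had 45 and 86 counts (14.4 and 21.1 CPM) and 0 elsewhere. Adh7, a retinol-oxidising alcohol dehydrogenase of upper digestive epithelium, had 36 and 46 counts (11.6 and 11.3 CPM) and 0 elsewhere. Of the Adh genes around it, Adh5 was well counted in every library (125 and 121 CPM in BMDM at rest, 120.3 CPM in RAW 264.7) and the others had at most 1 read. Pxdn, the peroxidase that crosslinks collagen IV, had 57 and 77 counts and 1 elsewhere, and Ddx43, an RNA helicase of the germ line, 40 and 46 with 3 elsewhere. Against 3 counts over the 6 other libraries, the pooled RAW 264.7 level was at least 1011-fold higher for Spink5, 480-fold for Myh14 and 300.3-fold for Adh7, values that the rule itself made large.

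Over 19 gene families, 104 relatives were in the table and 36 of them had no read in any of the 8 libraries. All families but the H2-T genes were named after a member, and they were chosen after the members were known. Some relatives, Hoxb5, Hoxb6 and H2-Q1 among them, passed the filter on low counts only through RAW 264.7. Of 48 relatives that could be tested at rest 12 were higher (25%, against 27.1% of all genes tested) and 18 lower (37.5%, against 31.3%) in RAW 264.7 than in BMDM. After LPS 9 were higher (18.8%, against 29.8%) and 29 lower (60.4%, against 36.4%), and 3 of those calls turn on the plain CPM scale.

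Of the 3 noncoding RNAs, Peak1os had 54 and 104 counts (17.3 and 25.5 CPM) in RAW 264.7 and 10 elsewhere, the most of any member together with Il17rc. It lies within the span of Peak1 on the other strand, and Peak1 had 704 and 892 counts in RAW 264.7 and 2856 and 3647 in BMDM at rest. Peak1 did not differ by the test at rest (log2 0.08). After LPS its level was higher in RAW 264.7 than in BMDM (log2 0.93, 219 CPM against 79.1 and 86.0). The kit keeps strand, but no source used here gives the strand setting of the counting, so reads of such a pair cannot be told apart with certainty. In the 2 BMDM libraries at rest, 2856 and 3647 reads of Peak1 came with 3 and 0 of Peak1os. Gm12606 had 36 and 51 counts and 3 elsewhere. It lies 1.07 kb from Cdkn2a, which encodes the tumour suppressors p16 and p19, and Cdkn2a had 0 counts in both RAW 264.7 libraries, with 19 and 36 in BMDM at rest, 12 and 19 after LPS, and 9 and 3 in hMPDM. At the depth of RAW 264.7 this is at least 1.63-fold lower at rest. 9330111N05Rik had 21 and 25 counts and 3 elsewhere. In all, 18 members overlapped the span of another gene, 13 of them a gene on the other strand. Itpa-ps1 lies within Ttc17 and Gm15920 within Rabgef1, both on the same strand as their host. Ttc17 had 225 and 227 counts in RAW 264.7, and Rabgef1 97 and 168.

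The members were scattered over the genome. They lay on 18 chromosomes with at most 4 on any one, and only Gm4737 with Nectin3 (232.6 kb) and Gm8810 with Gm10499 lay within 500 kb of each other. Around them were 85 distinct nearest tested genes, which the rule did not choose but which had to pass the filter on low counts, some of them through RAW 264.7. Of these 23 were higher in RAW 264.7 than in BMDM at rest (27.1%) and 28 lower (32.9%), the shares of all tested genes being 27.1% and 31.3%. At 2-fold or more the shares were 11.8% and 18.8%, against 9.1% and 14.1% of all genes. After LPS 26 were higher (30.6%) and 29 lower (34.1%), and at 2-fold or more 17 were higher (20%, against 12.7% of all genes) and 16 lower (18.8%, against 2377 of the 12461 genes tested). Whether neighbours differ from genes at large was not tested.

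Single neighbours had large fitted changes. Gm8909, 18.5 kb from Gm10499, had 75 and 140 counts in RAW 264.7, 1 and 0 in BMDM at rest (log2 9.00) and at most 3 in each other library. Eif3j2 (6.50), Col4a5, a collagen IV chain (6.36), and Ripor3 (5.95, with 9 and 7 counts in RAW 264.7 and 1 in all elsewhere) followed, but they lay 485.4 kb from Spink5, 290.9 kb from Gm6368 and 70.4 kb from Pard6b. Gm8909, Eif3j2, Col4a5 and Ripor3 passed the filter on low counts only through RAW 264.7, so their calls support nothing. Myo1d, 30.1 kb from Tmem98, was at 1.47 and 1.86 CPM in BMDM and 75.1 CPM in RAW 264.7 at rest (5.27), and was picked for naming after its values were seen. In the other direction Plcxd2, the nearest tested gene to Gm4737 and Nectin3 on one side, had 182 and 211 counts in BMDM at rest and 0 in RAW 264.7, at least 11.7-fold lower. Cmklr1, a chemerin receptor 301.6 kb from Sgsm1, was at least 6.86-fold lower and C920006O11Rik, 216.9 kb from Ddx43, at least 2.11-fold lower, both with 0 counts in RAW 264.7 at rest. Genes with 0 counts lead that order because it uses fitted changes, which depend on the prior count. S100a9, the nearest tested gene on one side of Rplp0-ps1 though 2582.4 kb away, had 417 and 526 counts in BMDM at rest and 1 in RAW 264.7, and was named after its values were seen.

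Start sites were compared through RefSeq promoter windows of 300 bases (GRCm38.p6, 250 before and 50 after the start), which matched 25 members, 22 of them coding. Where a gene had several windows, the one of lowest coordinate was used. The ratio of observed to expected CpG dinucleotides, which is high in the unmethylated islands of widely expressed genes, had a median of 0.579 in the 22 coding members. It was 0.80 in 7355 other coding genes with 5 CPM in both RAW 264.7 libraries and 0.380 in all 27025 genes with a window. A ratio of at least 0.6 was found in 45.5% of the coding members, 78.2% of those other coding genes and 35.9% of all genes. For Sgsm1, on the minus strand, the window used had a ratio of 0.259. Its other window, at the 5′ end of the gene, had 0.757. Promoters of both kinds occurred among members. The bases before the start of Irx2 (chr13:72628570-72628819, plus strand) and Adh7 (chr3:138217523-138217772, plus strand) show the contrast, with CpG in capitals, 19 in Irx2 and 1 in Adh7.
Irx2: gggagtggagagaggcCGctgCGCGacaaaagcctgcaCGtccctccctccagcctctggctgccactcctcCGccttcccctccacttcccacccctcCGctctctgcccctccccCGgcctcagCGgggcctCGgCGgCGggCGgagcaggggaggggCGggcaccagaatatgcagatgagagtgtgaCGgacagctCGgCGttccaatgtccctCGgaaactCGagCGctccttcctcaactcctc
Adh7: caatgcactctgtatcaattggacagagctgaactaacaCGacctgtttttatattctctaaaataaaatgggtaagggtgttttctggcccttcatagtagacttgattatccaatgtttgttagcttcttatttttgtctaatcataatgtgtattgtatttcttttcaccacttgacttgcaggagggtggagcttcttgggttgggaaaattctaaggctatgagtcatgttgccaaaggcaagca

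Short motifs were searched on both strands of the same windows. TATAAA was found in 20% of the 25 members, in 14.1% of all promoters and in 6.19% of those of genes counted in RAW 264.7. GAGGAAG, a core bound by the myeloid factor PU.1, was found in 24% of members and 13.5% of all promoters, and GGGCGG, a GC box, in 56% and 35.6%. Among genes counted in RAW 264.7 those 2 motifs were found in 13.4% and 67.3%. TGANTCA (the AP-1 site) was found in 8% and 7.91%, CACGTG in 8% and 7.09%, and TGACGTCA in 0% and 1.78%. No motif of the set contains another. With 25 promoters a single one is 4%, and a match in these letters is no evidence of binding.

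Within RAW 264.7, both states were needed for membership, so a gene silent in one of them could not enter. Across the 44 genes the CPM ratio of the LPS library to the resting library had a median log2 of -0.01, against -0.09 over all 9291 genes with 5 CPM in both. It was above 1 for 21 members and below 1 for 23. Among the 9291 genes it was above 1 for 3424 and below 1 for 5867. No member reached 2-fold in either direction, where 1.81% of the 9291 genes were at least 2-fold higher and 1.31% at least 2-fold lower. With 44 genes such shares amount to less than 1 gene each way.

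The exact 95% counting interval of the ratio lay above 1 for 6 members (13.6%, against 11.6% of the 9291 genes). It lay below 1 for 2 members (4.55%, against 22.8%). Whether an interval leaves out 1 depends on the number of reads, and members and the 9291 genes were not matched by level. Igsf3 had the highest ratio among well counted members, 1.68 (1.29 to 2.20), from 84 to 185 counts. Gm8810 (1.69, 1.02 to 2.90), Spink5 (1.41, 1.10 to 1.82), Peak1os (1.47, 1.05 to 2.08), Gm10039 (1.49, 1.01 to 2.23) and Myh14 (1.46, 1.01 to 2.14) were the others above 1. Trpm1 (0.559, 0.337 to 0.918) and Gm15772 (0.779, 0.652 to 0.932) lay below 1. The interval of the remaining 36 held 1, as for Cpne8 (1.06, 0.904 to 1.25) and Gm10260 (0.898, 0.800 to 1.01). By kind, the median log2 ratio was -0.01 for the copies, -0.02 for the other coding genes, 0.05 for the class I members and 0.11 for the noncoding RNAs.

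**Figure D4:**
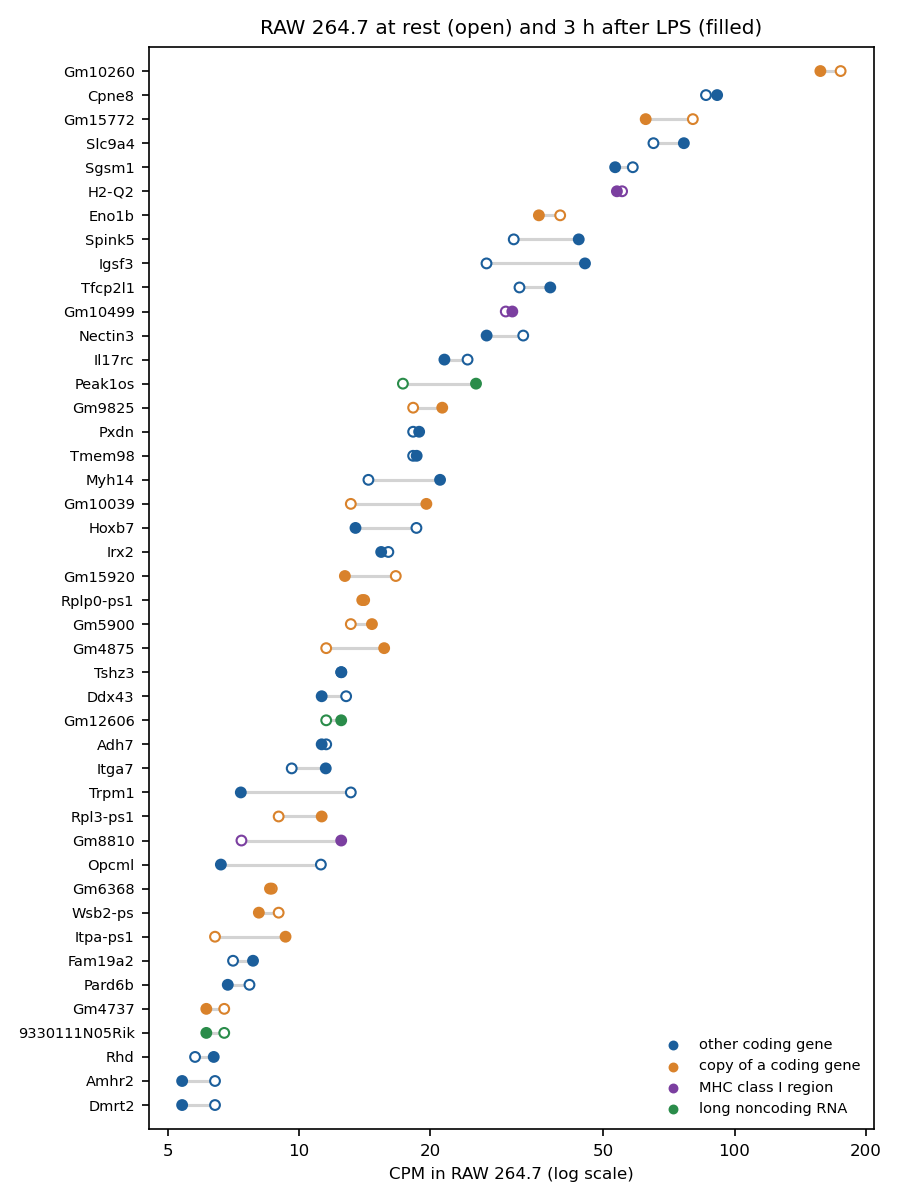
CPM on a log axis of each member in RAW 264.7 at rest (open) and 3 h after LPS (filled), ordered by the mean of both and coloured by kind of gene. The levels are per library and not per length, and run from 175.2 CPM for Gm10260 to 5.39 CPM for Amhr2 and Dmrt2.

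**Figure D5:**
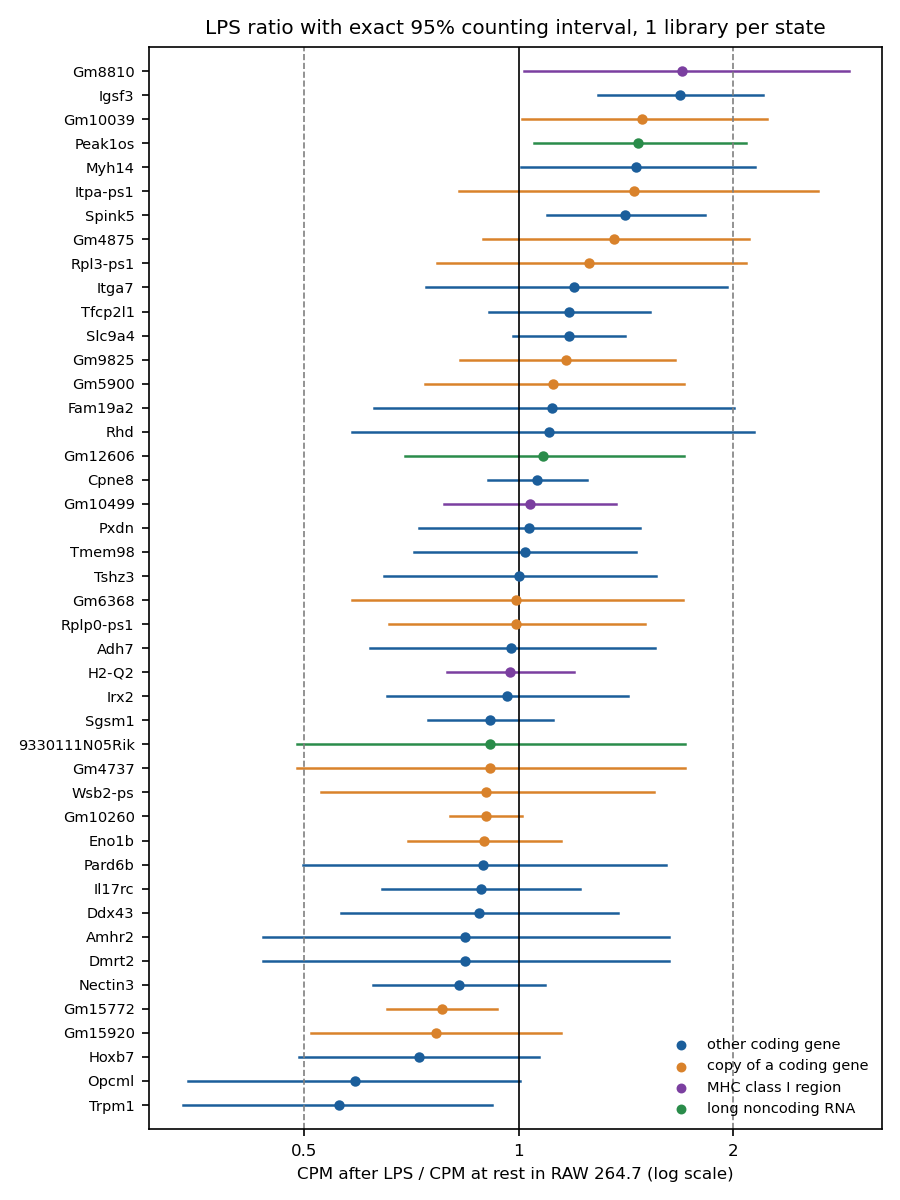
Ratio of CPM after LPS to CPM at rest in RAW 264.7 for each member (points, log axis) with its exact 95% counting interval (lines), 1 library per state. Dashed lines mark 2-fold in either direction, which no point reaches, and 8 intervals leave out 1.

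Over 17 lists of genes chosen by function (macrophage, lineage, germline, imprinted, HOX and cell type genes) Hoxb7 was the only member. Of all 9291 genes with 5 CPM in both RAW 264.7 libraries, 0.474% were members, and whether the lists differ from that was not tested. Genes above the rule's maximum in BMDM or hMPDM could not enter. Of 22 macrophage identity genes 21 reached 5 CPM in both RAW 264.7 libraries. That list summed to 24135 and 23889 CPM in BMDM at rest, so the rule itself bears on its lack of members. Of 108 listed genes tested at rest 22 were higher (20.4%, against 27.1% of all genes tested) and 48 lower (44.4%, against 31.3%) in RAW 264.7 than in BMDM. After LPS 21 were higher (19.4%, against 29.8%) and 60 lower (55.6%, against 36.4%). Macrophage identity genes gave 5 higher and 13 lower of 22 at rest (median log2 -0.50, against -0.06 over all tested genes). Osteoclast markers gave 6 higher and 2 lower of 9 (median 0.39), among them Ctsk, the bone-resorbing cathepsin (5.25), Dcstamp, needed for cell fusion (4.07), and Acp5 (3.14), with Itgb3 lower (-7.06). Neutrophil markers gave 0 higher and 10 lower of 11. For 7 of the 11 neutrophil markers RAW 264.7 had 0 counts at rest. At its depth these were at least 1.16-fold (Elane) to at least 13.0-fold (Ngp) lower. None of the macrophage, osteoclast and neutrophil genes was a member.

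The borders of the set were close in level. Just inside the minimum were Amhr2 and Dmrt2 (5.39 CPM in the lower library) and Rhd (5.78), and just outside were Gm10093 (4.90), Pax6 (4.66), a factor of eye and brain, and Spire2 (3.92). Just inside the maximum were Gm15772, Peak1os and H2-Q2 (0.197 CPM), and just outside Gm9855 (0.207), Gm16103 and the interferon-inducible gene Ifi202b (both 0.251). Ifi202b had 33.1 and 56.4 CPM in RAW 264.7 and 4 counts elsewhere, and missed the rule by a single library.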

How the data were processed

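The members, the gene lists and the families were chosen with earlier results of these data known. The deposited table holds raw counts per gene made by the authors, with no normalization. Build mm10 and the tools STAR, featureCounts, cutadapt, bedtools and SAMtools are named without versions in the submitters' processing notes. No source used here gives the strand setting or the treatment of reads that map to several places. Of 10 value columns 8 matched a sample by name, and 2 were not used. Reads were single-end and 50 bases long, per the series description.

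CPM was the count over the column sum. Gene names came from a reference list (42462 of 43346 matched), and types and spans from GENCODE M21 (the span was the same for 32 of 44 members). Transcripts of members were aligned to other coding transcripts with blastn 2.17.0; a close relative had at least 80% identity over at least 70% of the member. RAW 264.7 and BMDM were compared with edgeR 4.0.16 (R 4.3.3; TMM, filterByExpr, quasi-likelihood test, Benjamini-Hochberg adjustment over 12461 genes), fitted on all 8 libraries with 1 coefficient per group. The 2 residual degrees of freedom came from the BMDM pairs. The 44 members were among the genes fitted and adjusted, and their own tests are not used. LPS ratios in RAW 264.7 have exact intervals and no test.

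Named were the 20 coding and 8 other members of highest mean CPM, members within 500 kb of each other, members in a list, the 3 genes on either side of each threshold, relatives by symbol, and the 4 neighbours with the largest called fitted change each way. The remaining members were named so that every one is accounted for, and list genes, Myo1d and S100a9 after their values were seen. Some items are not reported here. Alternatives were other thresholds, TMM-scaled CPM, a prior count, neighbours within 100 kb, RLE scaling, DESeq2 1.42.0, no filter, a replicate block and leaving out each BMDM library.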

Additional observations from a re-analysis of the deposited data

How the results depend on the processing

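The number of members depended on the thresholds: it was 74 with a minimum of 2 CPM in RAW 264.7, 29 with 10 CPM, 75 and 101 with a maximum of 0.5 and 1 CPM elsewhere, 79 where hMPDM alone had to be low, and 7 where each other library had to have 0 counts. With TMM-scaled CPM the number was 34, and where BMDM alone had to be low it was 51. Without each BMDM library in turn it was 45 to 49. At 1.5-fold in place of 2-fold, 2 members had a higher LPS ratio (4.55%, against 4.56% of the 9291 genes counted in RAW 264.7). Another 2 had a lower one (4.55%, against 7.96%).

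With no filter on low counts the nearest tested genes gave 15 higher and 14 lower at rest, and 15 and 14 after LPS. Those neighbours are other genes, since more genes were then tested. With DESeq2, 19 neighbours were lower after LPS, and 1 parent was higher at rest; the cause was not tested. Leaving out each BMDM library gave 24 to 26 neighbours higher and 25 to 28 lower at rest, and 25 to 27 and 28 to 29 after LPS. For the parents it gave 2 higher and 7 lower at rest, and 2 higher and 7 to 8 lower after LPS. For the lists it gave 22 to 23 and 43 to 49 at rest, and 21 to 23 and 57 to 62 after LPS. The alternatives for the parents were chosen after seeing the data.

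With the replicate number as a block, 24 neighbours were higher and 27 lower at rest, and 2 parents higher and 7 lower. The numbers are shared between only 2 BMDM pairs and do not show pairing (correlation of their deviations -0.0341 over 10878 genes). With the block the lists gave 22 and 47 at rest. On the plain CPM scale 3 neighbour calls and 4 list calls turn direction after LPS, and 0 and 1 at rest. RAW 264.7 depth limits absence there to 0.963 CPM at rest and 0.736 CPM after LPS.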
